A study of Mus musculus with 2 samples.

Results

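Regulatory T cells (Tregs) were examined among the CD45+ tumor-infiltrating immune cells (TIIs) of B16-OVA tumors, in 2 droplet scRNA-seq libraries, 1 of control mice and 1 of mice given creatine. They were chosen by a gate on raw unique molecular identifiers (UMIs, each of which counts 1 captured mRNA molecule): at least 1 UMI of *Foxp3*, at least 1 UMI over *Cd3d*, *Cd3e* and *Cd3g*, none of *Cd8a* or *Cd8b1* and none of *Csf1r*, among cells with at most 25% mitochondrial UMIs. The gate held 510 of the 13470 cells that passed this filter, 315 of 7241 with PBS and 195 of 6229 with creatine. Cells that met the same conditions on *Cd3*, *Cd8* and *Csf1r* but held *Cd4* and no *Foxp3* served for comparison. These Foxp3-negative CD4 T cells numbered 193 with PBS and 212 with creatine.

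B16-OVA is a mouse melanoma line that carries ovalbumin as a model antigen, and it was grown under the skin of B6 mice. Control mice were labeled as given PBS and treated mice as given creatine, 10.5 mg per day into the peritoneum by the methods. Tumors were labeled as taken on day 14 with 4 tumors pooled per group, whereas another passage of the methods gives an earlier day and a legend another number of mice. For the control library, the title and treatment entry say untreated and PBS while the protocol text speaks of creatine injections. It was taken as the control from the former, and every ratio below rests on this. As deposited, the control cells (7649) held 80434564 UMIs, and the creatine cells (6503) held 72898494. In the cells kept, the median was 7688 and 8475 UMIs per cell. The libraries had 30 cell barcodes in common, none of them in the Treg gate of both. The methods name male mice unless otherwise indicated, whereas Tregs held 2341 and 1667 UMIs of *Xist*, the RNA of the inactive X chromosome, none of the Y-linked genes *Ddx3y*, *Kdm5d* and *Eif2s3y*, and 1 UMI of the Y-linked *Uty*, in the control library. Each condition is 1 pool and 1 library, which leaves no replicate and no test, and an effect of creatine cannot be told apart from any other difference between the pools. Intervals in brackets are 95% intervals that cover counting error only (exact Poisson for levels, exact conditional binomial for ratios, exact Clopper-Pearson for shares).

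Tregs are CD4 T cells that restrain other immune cells. The transcription factor FOXP3 maintains their program, which includes the high-affinity receptor for interleukin-2 (CD25, encoded by *Il2ra*), the inhibitory receptor CTLA-4, which takes costimulatory ligands from antigen-presenting cells, and activators of latent TGF-β. In tumors they are known to accumulate in an activated state with receptors of the TNF receptor family at their surface, and to limit CD8 T cell responses.

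In the control library, the Treg gate took 4.35% of the cells kept (3.89 to 4.85) and in the creatine library 3.13% (2.71 to 3.59). As a share of Tregs and Foxp3-negative CD4 T cells together, Tregs made up 62.0% (57.6 to 66.3) with PBS and 47.9% (43.0 to 52.9) with creatine. Both shares were lower in the creatine library, with intervals that did not overlap. A gate on single UMIs depends on depth, and Treg gate cells held a median of 5160 UMIs with PBS and 5903 with creatine, so the gate was repeated with every cell reduced at random to 2000 UMIs. The shares of cells were then 3.56% (3.13 to 4.04) and 2.66% (2.27 to 3.11), and the shares of CD4 cells 65.0% (59.9 to 69.9) and 52.0% (46.2 to 57.7). At 1000 UMIs per cell the shares of CD4 cells were 60.3% (54.4 to 66.0) and 49.5% (42.5 to 56.6), so the creatine library still had the lower share while the intervals overlapped. *Cd4* is not part of the gate, and 58.1% of control Tregs (52.4 to 63.6) and 72.3% of creatine Tregs (65.5 to 78.5) held at least 1 UMI of it. The comparison cells had to hold *Cd4*, so the share of CD4 cells sets a gate without this condition against a gate with it. With *Cd4* required in both, Tregs made up 2.53% and 2.26% of the cells, and 48.7% and 39.9% of the CD4 cells. The gap between the libraries was then smaller for both shares, and no intervals were computed for them.

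**Figure D1:**
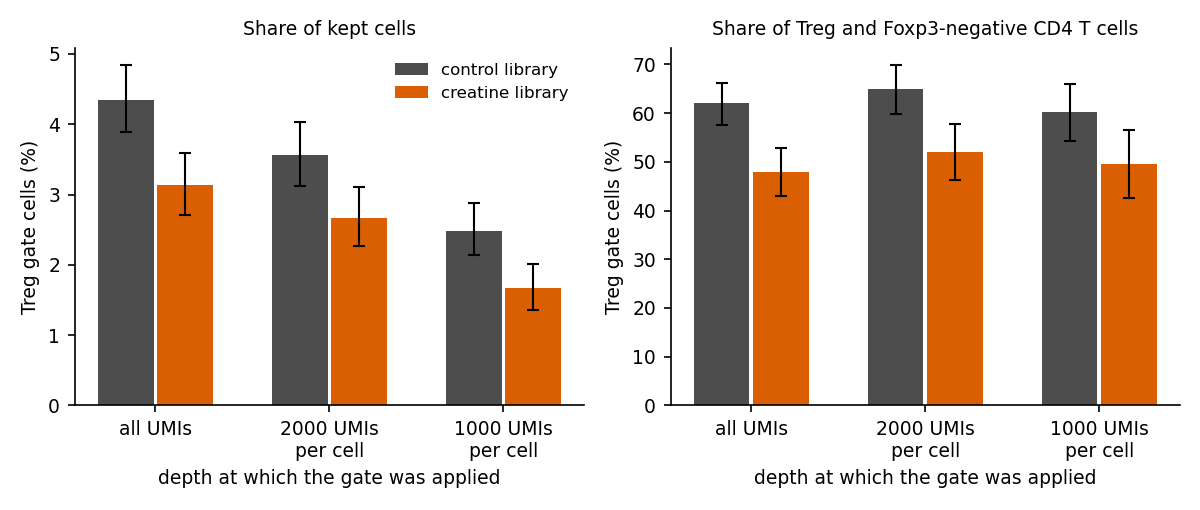
Share of cells in the Treg gate (vertical axes, percent) in the control (grey) and creatine (orange) library, of all cells kept (left) and of Tregs plus Foxp3-negative CD4 T cells (right), with the gate applied to all UMIs or to cells thinned to 2000 or 1000 UMIs. Bars are shares and lines 95% Clopper-Pearson intervals for counting error only; the creatine bar is the lower one in each pair.

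Most cells of the gate held *Foxp3* more than once. In the control library, 75 cells held 1 UMI, 58 held 2 and 182 held 3 or more, with a highest count of 14. In the creatine library, 43 held 1 UMI, 35 held 2 and 117 held 3 or more, with a highest count of 19. Every cell of the Treg gate holds *Foxp3* by the rule, so only its background in other cells is given. A gate of NK cells (*Ncr1* held, no *Cd3* and no *Csf1r*), which should lack the gene, contained it in 0.651% of control cells (0.134 to 1.89). In creatine cells the share was 0.349% (0.0720 to 1.02). The median depths of the NK gate were 4116 and 5608 UMIs. In a myeloid gate (*Csf1r* held, no *Cd3*) the shares were 2.14% (1.41 to 3.09) and 0.880% (0.423 to 1.61), at 10053.5 and 9743 UMIs.

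Just inside the gate, cells with a single *Foxp3* UMI had *Ikzf2* at 1435 UMIs per 1000000 UMIs of the cells summed (CPM) with PBS and 2069 with creatine, against 1395 and 1707 in cells with 3 or more. Just outside it, cells with no *Foxp3* but with *Cd4* had *Ikzf2* at 399 and 263 CPM. Cells with neither *Foxp3* nor *Cd4* had it at 315 and 393 CPM. The 70 control and 43 creatine cells that the gate lost through a single UMI of *Cd8a* or *Cd8b1* had *Ikzf2* at 1396 and 1725 CPM and *Ctla4* at 628 and 609 CPM, levels like those inside the gate. Those with 2 or more *Cd8* UMIs stood at 618 and 803 CPM for *Ikzf2*. Of all cells with *Foxp3*, 601 with PBS and 344 with creatine, 52.4% and 56.7% were in the gate, and 32.1% and 33.4% were left out because they held both *Cd3* and *Cd8*. *Csf1r* kept out 47 and 18 further cells, and the lack of *Cd3* kept out 46 and 16.

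The label was checked against the other markers given for Tregs. *Ikzf2* (chr1:69531214-69687245 in GRCm38) encodes Helios, a transcription factor of the Ikaros family, and stood at 1426 CPM (1380 to 1472) in control Tregs and 1816 (1751 to 1883) in creatine Tregs. *Ctla4* (chr1:60887000-60915832) stood at 626 (596 to 657) and 690 (650 to 732) CPM. *Izumo1r*, which encodes folate receptor 4 (chr9:14885814-14903949), stood at 189 (172 to 206) and 244 (220 to 269) CPM. *Ccr8*, a chemokine receptor of activated tumor Tregs (chr9:120092114-120094906), was low at 18.3 (13.5 to 24.3) and 14.4 (9.13 to 21.6) CPM. *Foxp3* itself (chrX:7573644-7595245) stood at 416 (392 to 441) and 483 (449 to 518) CPM. All 4 markers other than *Foxp3* were thus detected in both libraries, and only 9 control cells and 1 creatine cell of the gate held none of them. Cells with 3 of the 4 were the most frequent class, 48.6% of the gate with PBS and 55.4% with creatine.

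With each cell thinned to 2000 UMIs, which kept 284 control and 181 creatine Tregs, *Ikzf2* was held by 88.4% of control Tregs (84.1 to 91.9) and 92.3% of creatine Tregs (87.4 to 95.7). Over all UMIs the shares were 95.2% and 97.9%. In the NK gate, the thinned shares were 8.06% and 7.51%. *Ctla4* was held by 65.1% (59.3 to 70.7) and 64.6% (57.2 to 71.6) of Tregs, against 3.23% and 1.07% in the NK gate. *Izumo1r* was held by 32.0% (26.7 to 37.8) and 41.4% (34.2 to 49.0), and by 0 of 434 and 0 of 839 NK gate cells, with upper limits of 0.846% and 0.439%. *Ccr8* was held by only 5.99% (3.53 to 9.41) and 4.42% (1.93 to 8.52), again with 0 NK gate cells. Intervals of the libraries overlapped for all 4 markers. Among Foxp3-negative CD4 T cells *Ikzf2* was held by 23.2% (17.0 to 30.4) and 22.2% (16.6 to 28.7).

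The contrast with Foxp3-negative CD4 T cells is the one on which the cells were chosen, so it is described with no reading of its size. Among 8423 genes with at least 50 UMIs over the 4 sums of cells, 578 (6.86%) were at least 1.5-fold higher in Tregs in both libraries and 464 (5.51%) at least 1.5-fold lower in both. Of a list of 24 Treg signature genes, 23 were measured, 16 were higher past this fold in both libraries and none lower, with a median log2 ratio of 1.34 with PBS and 1.72 with creatine. The 10 genes that stood farthest above the comparison cells included *Ikzf4*, which encodes the Ikaros family factor Eos, *Il2ra*, *Itgb8* and *Lrrc32*. The last pair encodes an integrin chain and the docking protein GARP, which together release active TGF-β. *Itgb8* stood at 41.6 and 81.4 CPM in Tregs and at 5.56 and 3.25 CPM in the comparison cells. *Lrrc32* stood at 24.8 and 48.8 CPM against 5.56 and 2.44. *Il2ra* stood at 269 and 260 CPM against 57.8 and 30.9. The other 6 that the ranking named were *Rapsn*, *Myb*, *C1qtnf6*, *Swap70*, *Ncmap* and *Cxcl2*, of which *Cxcl2* came almost wholly from 1 control cell, with 152 of 163 UMIs.

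Of 10 helper T cell genes measured, 5 were lower in Tregs past the fold in both libraries and none higher. *Cd40lg*, the ligand by which helper T cells activate B cells and dendritic cells, stood at 2.29 and 8.14 CPM in Tregs against 45.6 and 70.7 CPM in Foxp3-negative CD4 T cells. *Ifng* stood at 11.8 and 27.6 CPM against 73.4 and 170 CPM. *Tcf7*, a transcription factor of naive and memory T cells, stood at 8.77 and 23.2 CPM against 113 and 186 CPM. *Bcl2*, a survival factor, stood at 23.6 and 21.9 CPM against 132 and 173 CPM. The other genes named by the ranking, not all of them helper genes, were *Ccl1*, *Siglech*, *Ramp3*, *Tnfsf8*, *Ehd3* and *Tnfsf11*. Of these, *Siglech* is in the list of dendritic cell markers and was the highest of them in the comparison cells, at 89.0 and 50.4 CPM. None of 14 resting T cell genes was higher in Tregs past the fold in both libraries and 9 were lower, with medians of -1.20 and -1.30. Genes of dividing cells went the other way, with 13 of 18 higher in both libraries and none lower, and medians of 0.93 and 0.75. After thinning to 2000 UMIs, 25% of control Tregs (20.1 to 30.5) and 22.7% of creatine Tregs (16.8 to 29.5) held at least 2 UMIs over 8 mitotic genes, against 14.6% (9.61 to 20.99) and 10.1% (6.28 to 15.2) of the comparison cells.

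**Figure D2:**
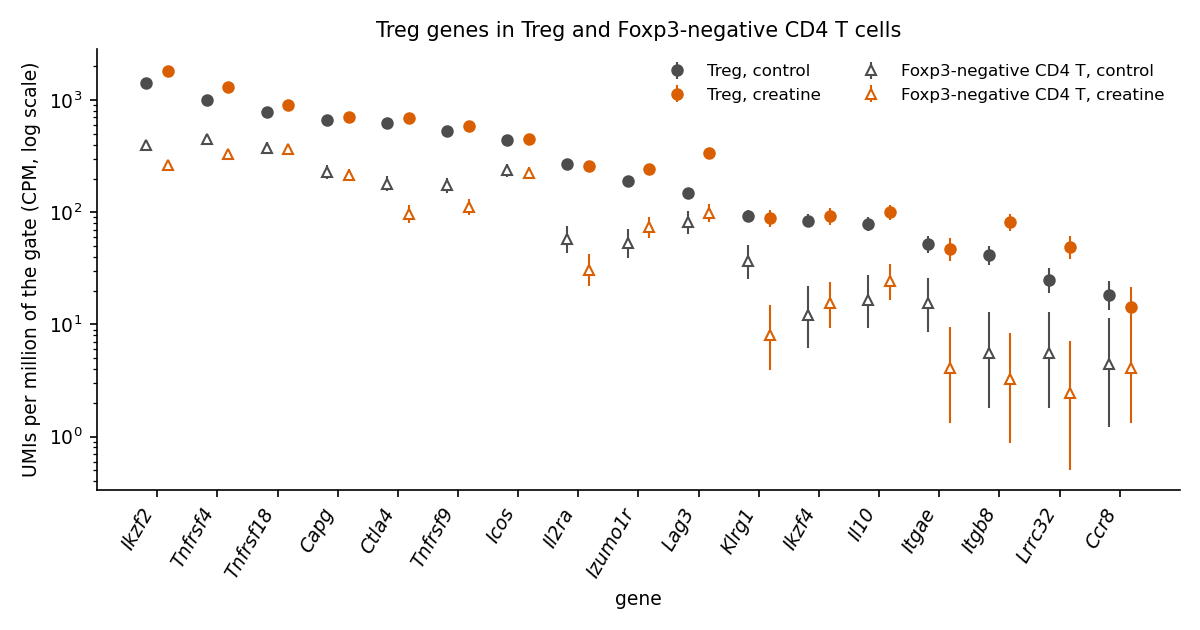
Levels of 17 genes known in Tregs, picked after their values were seen (vertical axis, CPM, log scale) in Tregs (circles) and Foxp3-negative CD4 T cells (triangles) of the control (grey) and creatine (orange) library, with 95% Poisson intervals for counting error only. The genes shown stand higher in Tregs than in the comparison cells of the same library, while *Nrp1*, which is not shown, stands lower (31.6 against 70.1 CPM with PBS). *Ikzf2* is at the top with 1426 and 1816 CPM and *Ccr8* at the bottom with 18.3 and 14.4 CPM.

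Between the libraries, 7306 genes had at least 50 UMIs over both Treg sums, which held 2623555 UMIs with PBS and 1597307 with creatine. Of these genes, 490 (6.71%) were at least 1.5-fold higher in creatine Tregs and 346 (4.74%) at least 1.5-fold lower, with 4142 above 0 and a median log2 ratio of 0.05 over all of them. This balance rests on the scaling, since 404 were higher and 400 lower with TMM factors, and 383 and 425 with mitochondrial and ribosomal protein genes left out of the totals. In Foxp3-negative CD4 T cells, which share the libraries and so are no independent check, 317 of 5312 genes (5.97%) were at least 1.5-fold higher and 335 (6.31%) lower, with a median of 0.01. Every list below is read against these shares. *Foxp3*, which chose the cells in both libraries, had a log2 ratio of 0.21 (0.08 to 0.35), a description from which nothing is read. Of the other core markers, *Ctla4* had a ratio of 0.14 (0.03 to 0.25), *Il2ra* -0.05 (-0.23 to 0.13), *Izumo1r* 0.37 (0.17 to 0.56), *Ikzf2* 0.35 (0.28 to 0.42) and *Ccr8* -0.35 (-1.13 to 0.40). None of them passed 1.5-fold, but *Ccr8* came to -0.81 with equal weight per cell and to -1.52 without dividing cells. Without dividing cells *Ctla4* came to -0.20, *Izumo1r* to -0.03 and *Ikzf2* to 0.08, so the signs of *Ctla4* and *Izumo1r* turned.

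The gene group with the highest median held interferon-stimulated genes (ISGs), which encode antiviral and immune proteins that cells make after a type I or type II interferon signal. All 22 measured ISGs were above 0 in creatine Tregs, 12 passed 1.5-fold upward and none downward, and the median log2 ratio was 0.65. In Foxp3-negative CD4 T cells 3 of 21 passed the fold upward, none downward, with a median of 0.25. *Isg15*, a ubiquitin-like protein, stood at 83.5 CPM (72.8 to 95.3) in control Tregs and 228 (205 to 253) in creatine Tregs, a log2 ratio of 1.45 (1.20 to 1.70), and at 0.96 (0.62 to 1.30) in the comparison cells. *Ifit1*, which binds viral RNA, stood at 35.4 and 111 CPM, a ratio of 1.64 (1.27 to 2.02), and 1.64 in the comparison cells. Without cells holding markers of other types its ratio in Tregs came to 2.85, and without dividing cells to 1.21. *Ifit3*, its partner, stood at 13.7 and 40.7 CPM, a ratio of 1.57 (0.96 to 2.20) that came to 2.20 without cells holding markers of other types, and had 1.48 in the comparison cells. *Ifit3* has a close paralog, *Ifit3b*, whose reads may not be told apart from its own, so its level is uncertain. *Usp18*, which removes ISG15 from proteins, stood at 8.77 and 29.4 CPM, a ratio of 1.75 (1.00 to 2.53).

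Several other ISGs had a larger ratio in Tregs than in the comparison cells, a difference that was not tested. *Bst2*, which encodes the viral tether tetherin, stood at 133 CPM in control Tregs and 264 in creatine Tregs, a log2 ratio of 0.99 (0.78 to 1.20), against -0.12 (-0.35 to 0.12) in Foxp3-negative CD4 T cells. *Zbp1*, a sensor of nucleic acid in Z form, stood at 149 and 284 CPM, a ratio of 0.93 (0.73 to 1.13), against 0.34 (0.06 to 0.64). *Irf7*, a transcription factor of the interferon response, stood at 45.7 and 82.0 CPM, a ratio of 0.84 (0.47 to 1.21), against 0.07 (-0.32 to 0.47). *Ifi27l2a*, the most abundant gene of the list, stood at 2029 and 3724 CPM, a ratio of 0.88 (0.82 to 0.93), against 0.53 (0.43 to 0.63). *Irf1*, another transcription factor of this response, had a ratio of 0.51 (0.30 to 0.72), under the fold. Summed over the list, control Tregs had a median of 6649 CPM per cell (quartiles 4241 and 9425) and creatine Tregs 9431 (5710 and 13916), and no Treg was without a UMI of it. Each quartile was higher in creatine Tregs, so the difference was spread over the cells. Outside Tregs, *Isg15* had log2 ratios of 1.13 in a CD8 T cell gate, 1.00 in the NK gate and 0.70 in the myeloid gate, so it was higher in the creatine library in each of the 5 gates.

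The promoters of the 3 genes of the ISG list among the 10 genes with the largest positive ratios are shown because they carry the element that interferon-activated factors are known to bind. In each, capitals mark matches to a pair of GAAA units with 2 bases of any kind between them, searched on both strands, where overlapping matches run together, and the other bases are in lower case. The windows are from RefSeq (GRCm38.p6), run from 250 bases before the start of the gene to 50 bases after it, and are given 5′ to 3′ on the strand of the gene.
*Isg15*, chr4:156200769-156201068, minus strand: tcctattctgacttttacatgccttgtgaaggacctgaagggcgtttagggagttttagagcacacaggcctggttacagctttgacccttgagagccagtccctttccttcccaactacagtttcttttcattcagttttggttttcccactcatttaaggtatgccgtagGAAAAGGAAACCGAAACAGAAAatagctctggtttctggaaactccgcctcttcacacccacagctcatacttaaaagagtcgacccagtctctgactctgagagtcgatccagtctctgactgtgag
*Ifit1*, chr19:34640639-34640938, plus strand: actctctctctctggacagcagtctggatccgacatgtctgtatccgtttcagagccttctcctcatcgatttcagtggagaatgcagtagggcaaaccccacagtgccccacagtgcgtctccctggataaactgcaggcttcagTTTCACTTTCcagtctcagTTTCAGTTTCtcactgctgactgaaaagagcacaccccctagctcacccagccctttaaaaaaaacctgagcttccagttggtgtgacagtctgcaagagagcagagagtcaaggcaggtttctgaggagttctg
*Ifit3*, chr19:34583279-34583578, plus strand: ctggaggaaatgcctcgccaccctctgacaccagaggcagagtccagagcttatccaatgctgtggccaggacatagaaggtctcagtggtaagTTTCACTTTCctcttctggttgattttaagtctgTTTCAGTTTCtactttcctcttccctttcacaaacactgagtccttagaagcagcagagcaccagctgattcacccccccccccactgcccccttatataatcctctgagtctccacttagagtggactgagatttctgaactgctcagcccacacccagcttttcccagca
The *Isg15* window held 3 overlapping matches that begin 78, 72 and 66 bases before the start, and the windows of *Ifit1* and *Ifit3* held 2 separate matches each, read on the opposite strand. Of the 14 ISGs with a window, 9 had a match (64.3%), against 3.99% of all 27025 genes with one. A match is a run of letters and says nothing of binding in these cells.

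Antigen presentation genes of MHC class I, which interferons are known to induce, were higher by less. All 12 were above 0 in creatine Tregs, 2 of them past 1.5-fold, with a median of 0.37, while in the comparison cells 4 of 12 were above 0, none passed the fold and the median was -0.05. The nonclassical gene *H2-Q7* stood at 827 and 1268 CPM, a ratio of 0.62 (0.53 to 0.71), and *H2-K1* at 2874 and 3741 CPM, a ratio of 0.38 (0.33 to 0.43). *B2m*, the light chain of class I molecules, stood at 3413 and 4185 CPM, a ratio of 0.29 (0.25 to 0.34). The transactivator *Nlrc5* had the largest ratio, 0.66 (0.25 to 1.07). In Foxp3-negative CD4 T cells *H2-Q7*, *H2-K1* and *B2m* had ratios of 0.07, 0.05 and -0.07. Helper T cell genes had a higher median in Tregs than class I genes, 0.49, which came to 0.21 with *Cd4* required. This list shares *Ccl5* and *Nkg7* with the CD8 T cell markers given below. *Ccl5* alone stood at 803 and 1293 CPM in Tregs, of 1738 and 2521 CPM summed over the list. All 8 measured were above 0, 3 passed the fold upward and none downward. In the comparison cells the median of helper T cell genes was -0.04.

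**Figure D3:**
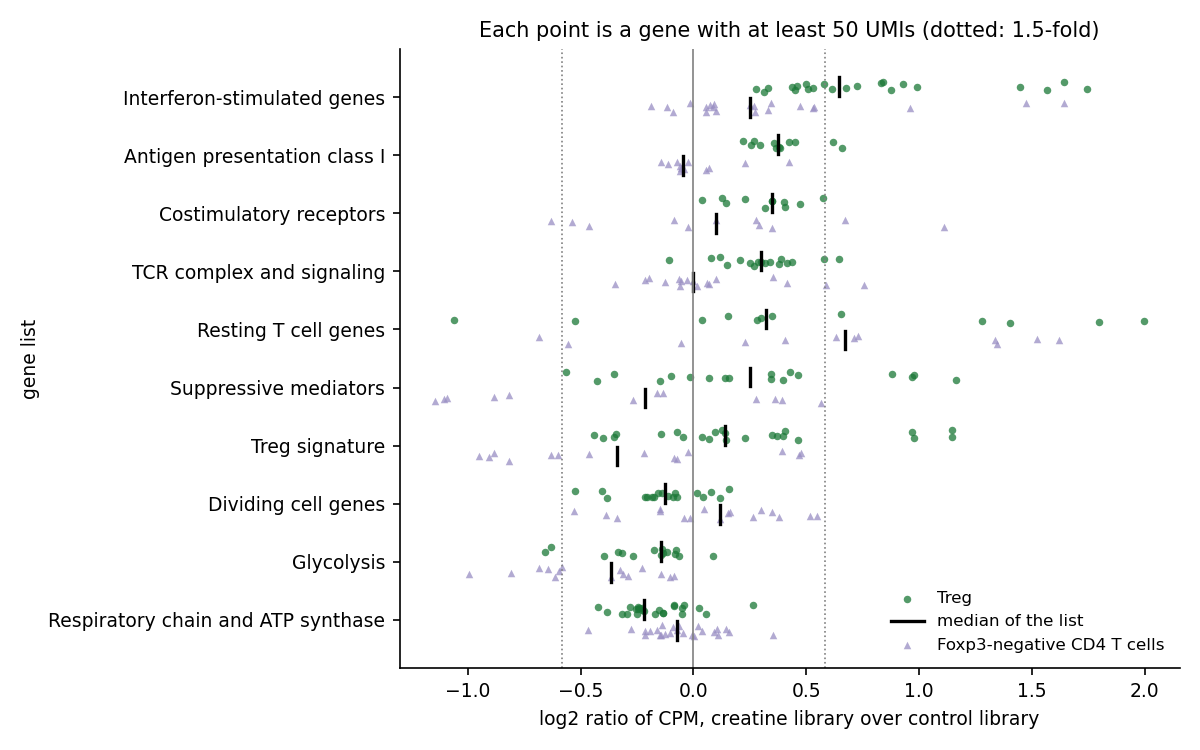
Log2 ratio of CPM, creatine library over control library (horizontal axis), for the measured genes of 10 lists (vertical axis), in Tregs (circles) and Foxp3-negative CD4 T cells (triangles). Black ticks are list medians and dotted lines mark 1.5-fold; in Tregs the median of interferon-stimulated genes is 0.65 and that of class I genes 0.37, against 0.25 and -0.05 in the comparison cells.

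Among suppressive mediators, 4 of 18 measured genes passed 1.5-fold upward in creatine Tregs and none downward, with a median of 0.25 that came to -0.01 with equal weight per cell. *Lag3*, an inhibitory receptor for MHC class II, stood at 149 CPM (135 to 165) in control Tregs and 334 (307 to 364) in creatine Tregs, a log2 ratio of 1.17 (0.97 to 1.36), against 0.28 (-0.16 to 0.71) in the comparison cells. At 2000 UMIs per cell, *Lag3* was held by 20.8% of control Tregs (16.2 to 26.0) and 38.7% of creatine Tregs (31.5 to 46.2), while in the comparison cells the shares were 10.4% (6.16 to 16.1) and 6.57% (3.54 to 11.0). Without thinning, 42.9% and 55.9% of Tregs held it. The share of NK gate cells with *Lag3* at 2000 UMIs was 4.15% and 3.93%. *Lrrc32* and *Itgb8*, described above, had ratios of 0.98 (0.49 to 1.48) and 0.97 (0.59 to 1.35). Without dividing cells *Lrrc32* came to 0.32, under the fold, and *Itgb8* to 0.77. *Areg*, a growth factor that Tregs make in tissue repair, rested on 41 and 46 UMIs, with a ratio of 0.88 (0.24 to 1.53). The mediators that follow were within the fold over all cells of the gate. *Il10* stood at 78.9 and 100 CPM, a ratio of 0.34 (0.04 to 0.65) with 38 of 207 control UMIs in 1 cell, and its ratio came to -0.01 with equal weight per cell. *Gzmb* stood at 512 and 690 CPM, a ratio of 0.43 (0.31 to 0.55), and *Tgfb1* at 172 and 170 CPM, a ratio of -0.02 (-0.24 to 0.20). The *Gzmb* ratio passed the fold with *Cd4* required but came to -0.02 with equal weight per cell. At 2000 UMIs per cell, *Gzmb* was held by 41.55% of control Tregs and 38.12% of creatine Tregs, with intervals that overlapped. *Havcr2*, which encodes the receptor TIM-3, had a ratio of -0.56 (-1.04 to -0.11).

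Of the 23 Treg signature genes, 4 passed the fold upward and none downward, with a median of 0.14 that came to -0.04 without dividing cells. These 4 were *Lrrc32*, *Itgb8*, *Nrp1* and *Il1rl1*. *Nrp1*, a semaphorin receptor found on thymus-derived Tregs, stood at 31.6 and 70.1 CPM, a ratio of 1.15 (0.73 to 1.58), though it was higher in the comparison cells, at 70.1 and 97.5 CPM. Its ratio came to 1.83 without cells holding markers of other types and to 1.80 with equal weight per cell. At 2000 UMIs it was held by 5.63% and 11.6% of Tregs, and by 22.3% and 22.8% of myeloid gate cells. *Il1rl1*, the receptor of IL-33, rested on 23 and 31 UMIs, with a ratio of 1.15 (0.32 to 1.99). The ectoenzyme gene *Entpd1* (CD39) had a ratio of 0.46 (0.09 to 0.83), which came to 1.09 without cells holding markers of other types and to 0.87 without dividing cells, and was held by 10.2% (6.95 to 14.3) and 18.2% (12.9 to 24.6) of thinned Tregs, with shares of 2.77% and 4.89% in the NK gate and of 16.0% and 11.0% in the myeloid gate. In the comparison cells, the same list had 6 of 14 genes past the fold downward, none upward, and a median of -0.34. All 11 costimulatory receptors were above 0 in creatine Tregs and none passed the fold, with a median of 0.35 that came to 0.06 with equal weight per cell and to 0.08 without dividing cells. *Tnfrsf4* (OX40) stood at 996 and 1320 CPM, a ratio of 0.41 (0.32 to 0.49) that also came to 0.06 and 0.08, and *Tnfrsf1b*, the TNF receptor 2 that sustains Tregs, at 149 and 221 CPM, a ratio of 0.57 (0.36 to 0.78). The T cell receptor complex and its signaling genes had a median of 0.30, with 16 of 17 above 0 and 1 past the fold, *Trbc1* at 0.65 (0.51 to 0.78).

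Genes of resting and recirculating T cells were among those with the largest ratios. Of 12 measured, 5 passed the fold upward and 1 downward, with a median of 0.32 that came to -0.04 without dividing cells, and in the comparison cells 7 of 12 passed upward and 1 downward, with a median of 0.67. *Klf2*, the transcription factor that drives exit of T cells from tissue, stood at 22.9 CPM (17.5 to 29.4) in control Tregs and 79.5 (66.3 to 94.6) in creatine Tregs, a ratio of 1.80 (1.34 to 2.27). Its relative *Klf3* stood at 11.4 and 45.7 CPM, a ratio of 2.00 (1.37 to 2.66) that came to 1.19 with equal weight per cell, 1.29 without dividing cells and 2.82 with *Cd4* required. *S1pr1*, the egress receptor that KLF2 is known to induce, stood at 28.6 and 69.5 CPM, a ratio of 1.28 (0.85 to 1.72). In the comparison cells these 3 genes had ratios of 1.62, 1.35 and 1.33. In the CD8, NK and myeloid gates *Klf2* had 1.29, 0.81 and 1.27, and *Klf3* had 0.88, 0.27 and 0.53. The gene past the fold downward was *Ccr7*, the lymph node homing receptor, at 30.1 and 14.4 CPM in Tregs, a ratio of -1.06 (-1.80 to -0.38), while in the comparison cells it had a ratio of 1.52 (0.69 to 2.45). Its ratio in Tregs rested on 79 UMIs in 19 control cells and 23 in 11 creatine cells, and the share of Tregs that held it did not follow, at 6.03% and 5.64% over all UMIs and 2.46% and 3.31% at 2000 UMIs. *Il7r* had a ratio of -0.53 (-0.74 to -0.32). *Itga4*, an integrin chain for entry into tissue, stood at 51.8 and 155 CPM, a ratio of 1.58 (1.27 to 1.89), and 1.02 in the comparison cells. Its ratios in the CD8, NK and myeloid gates were 0.54, 0.23 and 1.20.

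Dividing and nondividing Tregs also differed in level. Tregs with at least 2 UMIs over the 8 mitotic genes numbered 127 of 315 and 64 of 195, with medians of 11745 and 11152 UMIs against 3838 and 5181 in the rest. *Ctla4* stood at 478 and 599 CPM in dividing Tregs and at 918 and 800 CPM in the others, with PBS and creatine in this order. *Il10*, the suppressive cytokine, stood at 48.7 and 59.3 CPM against 139 and 150 CPM. Both were thus lower per UMI in dividing Tregs of both libraries. The class is called on raw UMIs and so also favors deep cells, and the part of depth in these differences was not tested. Values given without dividing cells share this limit. *Foxp3* is not compared here, because the gate asks for 1 UMI of it whatever the depth of the cell. *Lag3* stood at 85.4 CPM (72.2 to 100.2) and 193 (165 to 224) in dividing Tregs and at 276 (242 to 312) and 507 (457 to 562) in the others. *Isg15* stood at 78.5 (65.9 to 92.8) and 162 (136 to 191) CPM against 93.4 (74.3 to 116) and 308 (269 to 352). Both were higher in the creatine library in dividing and in nondividing Tregs. *Klf2* was also higher in each, at 13.2 (8.35 to 19.8) and 58.1 (43.3 to 76.4) CPM in dividing Tregs and at 42.1 (29.7 to 58.1) and 106 (83.2 to 132) in the others. Of the 18 dividing cell genes none passed 1.5-fold between libraries in Tregs, with a median of -0.12 that came to 0.08 once dividing cells were left out, and *Mki67* had a ratio of -0.14 (-0.29 to 0.01).

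**Figure D4:**
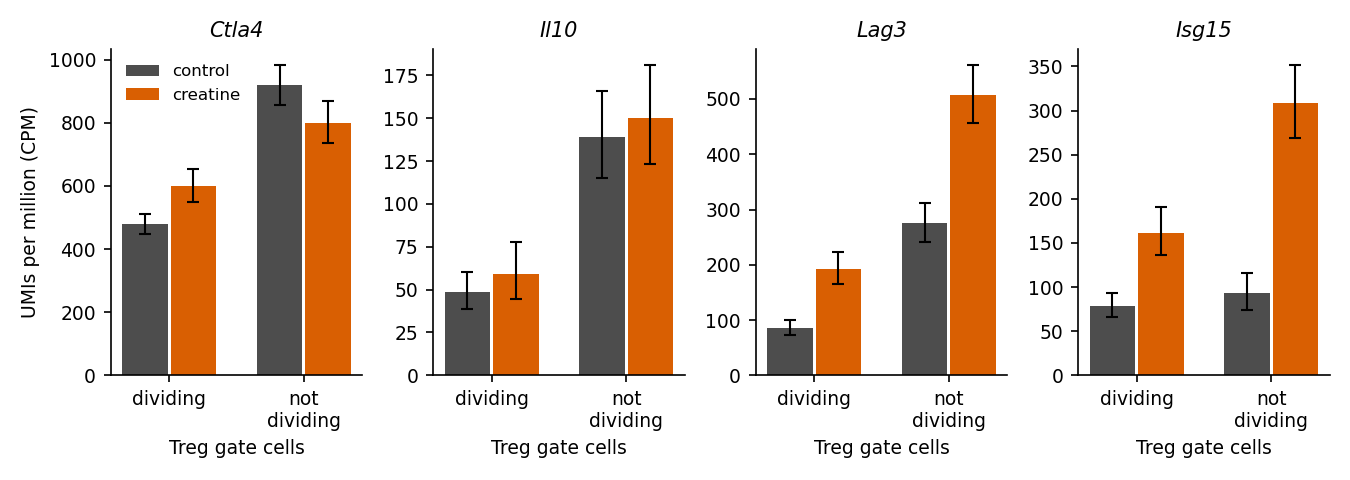
Levels of *Ctla4*, *Il10*, *Lag3* and *Isg15* (vertical axes, CPM) in dividing Tregs (left of each panel) and the other Tregs (right), in the control (grey) and creatine (orange) library, with 95% Poisson intervals for counting error only. *Ctla4* and *Il10* are lower in dividing Tregs, and *Lag3* is higher in the creatine library on both sides (85.4 to 193 CPM and 276 to 507 CPM).

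Most metabolic genes had ratios below 0 in creatine Tregs, and few passed the fold. Of 15 glycolysis genes 2 passed the fold downward and none upward, with 1 above 0 and a median of -0.14, and in the comparison cells 6 passed downward, with a median of -0.37. *Eno1* (enolase) stood at 473 and 306 CPM, a ratio of -0.63 (-0.78 to -0.48), and *Ldha* (lactate dehydrogenase) at 1196 and 908 CPM, a ratio of -0.40 (-0.49 to -0.31). *Hk2*, a hexokinase, had a ratio of -0.66 (-1.21 to -0.13), which came to -0.03 without dividing cells and to -0.39 under a stricter filter on genes detected and mitochondrial UMIs, but to -1.34 with equal weight per cell and -1.09 with *Cd4* required. *Eno1* came to -0.58 without dividing cells, so that both genes were then under the fold. Of 25 respiratory chain and ATP synthase genes 3 were above 0 and none passed the fold, with a median of -0.22. In creatine metabolism, the creatine transporter gene *Slc6a8* had 14 UMIs in control Tregs and 2 in creatine Tregs, too few for a comparison. The creatine kinase gene *Ckb* stood at 60.2 and 33.8 CPM, a ratio of -0.83 (-1.31 to -0.38), and had a ratio of -1.50 (-2.06 to -0.96) in the comparison cells. *Ckmt1* and *Ckmt2* had no UMI in Tregs of either library.

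Several of the largest differences rested on single cells or were shared by every gate. *Gzma*, a granzyme of cytotoxic cells, had a log2 ratio of 2.93, but 376 of its 395 UMIs in creatine Tregs lay in 1 cell, and without the highest cell of each library the ratio was -0.84. *Ifitm1*, which is not in the ISG list, had the most negative ratio among the genes ranked, -6.40. Of its 415 control UMIs 261 lay in 1 cell, and without that cell the ratio was -5.55. It came to -4.40 without cells holding markers of other types and to -4.44 without dividing cells. The chemokine gene *Cxcl2* (-4.05) had 152 of 163 UMIs in 1 cell, *Gzmc* (-3.37) 167 of 254, *Hspa1a* (-1.94) 96 of 107, *C1qc* (-2.02) 83 of 147 and *C1qb* (-1.90) 81 of 147. *Cxcl2* also had -3.88, -3.94 and -3.27 in the CD8, NK and myeloid gates, where *C1qc* and *C1qb* were below 0 as well. *Gzmc* came to -0.91 with at least 2 *Foxp3* UMIs. *Tbc1d4* (-2.39), which regulates the glucose transporter GLUT4, had 38 of 103 UMIs in 1 cell. Its ratio came to -1.41 with equal weight per cell and to -3.44 without cells holding markers of other types. *Gm47283*, a gene model annotated on chromosome Y, had a ratio of 2.38 in Tregs, which came to 3.39 without dividing cells. It had 2.31 in the comparison cells and 2.12, 2.67 and 2.24 in the CD8, NK and myeloid gates. *Gm10076*, a lincRNA model, had -1.82 in Tregs, -1.58 in the comparison cells and -1.68, -1.68 and -1.71 in the other gates, in that order. The histone gene *Hist1h2ap* (-1.82), *Casp4* (1.42), which encodes an inflammatory caspase, and *Gstp1* (-2.18), which encodes a glutathione transferase, also kept their sign in all 5 gates. *Ifi206* (1.39), an interferon-inducible gene, completes the 10 largest positive ratios. Along with *Klf2*, *Klf3*, *Itga4*, *Ifit1* and *Ifit3*, it was also above 0 in the CD8, NK and myeloid gates.

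Markers of other cell types were present in the Treg gate and differed between the libraries. All 14 Mono/TAM markers had UMIs in control Tregs and 13 in creatine Tregs, where *Vcan* was at 0. Their summed level was 677 CPM in control Tregs, led by *Fcer1g*, and 401 CPM in creatine Tregs, led by *Tyrobp*, and 109 of 315 and 37 of 195 cells held at least 3 of them. Of the 9 measured, 6 passed the fold downward and 1 upward, with a median of -1.13 that came to -0.47 with *Cd4* required, -0.58 with at least 2 *Foxp3* UMIs and -1.62 without the highest doublet scores. In the comparison cells 7 of 8 measured passed downward and 0 upward, with a median of -0.95. Their summed level was 893.1 and 499.5 CPM there, and 373.1 and 255.5 CPM in the CD8 gate. In the Treg gate, the 5 CD8 T cell markers were all present and summed to 1555 and 2279 CPM, led by *Ccl5*. Of the 4 measured between the libraries, 2 passed the fold upward, with a median of 0.55. The 8 NK cell markers were all present and summed to 226 and 429 CPM, led by *Tyrobp* in the control library and by *Gzma*, with its single cell, in the creatine library. B cell markers summed to 213 and 337 CPM, led by *Ighm*, while *Cd79a* and *Pax5* were at 0 in both libraries and *Ebf1* in the creatine library. Dendritic cell markers summed to 93.8 and 65.1 CPM, melanoma cell markers to 41.2 and 25.04, granulocyte markers to 17.5 and 3.76 and γδ T cell markers to 11.8 and 11.3, and erythroid markers were at 0. In the comparison cells, dendritic cell markers summed to 153.5 and 79.6 CPM and γδ T cell markers to 13.35 and 97.47 CPM. The part of these RNAs in the differences between the libraries was not tested. With every gate cell left out that held *Cd79a*, *Ncr1*, *Lyz2*, *Trdc* or *Dct*, the ISG median was 0.76 and the *Isg15* ratio 2.34. The share of Tregs among the 6% of cells with the highest doublet scores was 6.03% with PBS and 6.15% with creatine, like that of all cells.

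Among the genes whose ratio differed most between Tregs and Foxp3-negative CD4 T cells, several had positive ratios in Tregs and negative ones in the comparison cells, a difference that was not tested. *Tfrc*, the transferrin receptor, had a ratio of 0.36 (0.03 to 0.68) in Tregs and -1.52 (-2.15 to -0.91) in the comparison cells. *Gzmb* had 0.43 and -1.10 (-1.40 to -0.81), and *Fgl2*, a secreted suppressive protein, had 0.34 (0.14 to 0.54) and -1.15 (-1.55 to -0.75). In these 3 genes the ratio in Tregs was within 1.5-fold, and that in the comparison cells was beyond it. With *Cd4* required, *Gzmb* came to 0.69 in Tregs, past the fold, and without cells holding markers of other types to 0.004. With equal weight per cell the ratios in Tregs were near 0, at 0.03 for *Tfrc*, -0.02 for *Gzmb* and 0.04 for *Fgl2*. In the other direction, *Spp1* had -1.07 in Tregs and 1.18 in the comparison cells, on 100 and 29 UMIs in Tregs. Genes of the IL-2 receptor and survival had a median of 0.18 in Tregs, with 3 of 16 past the fold upward and 1 downward. *Socs3*, an inhibitor of cytokine signals, had a ratio of 1.12 (0.68 to 1.57), *Stat5b*, which relays the IL-2 signal, 0.85 (0.41 to 1.29) and *Socs1* 0.74 (0.43 to 1.05), while *Bcl2l11*, which encodes the death factor BIM, had -0.68 (-1.31 to -0.07). Treg transcription factors had 1 of 22 past the fold, *Tbx21* at 0.67 (0.16 to 1.18), and genes induced by the T cell receptor 2 of 15 upward and 1 downward. *Cd69*, an early activation marker, had 1.06 (0.68 to 1.44), *Nr4a3* 1.12 (0.45 to 1.81) and *Egr3*, on 55 and 10 UMIs, -1.74 (-2.88 to -0.76). Genes known to respond to tissue dissociation and stress also differed, with 5 of 21 past the fold upward and 3 downward in Tregs and 4 of 18 upward and 1 downward in the comparison cells. Their part in the result was not tested.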

How the data were processed

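The authors aligned the droplet reads with Cell Ranger 3.0.2 to mm10, per the submitters' processing notes, and deposited raw UMI counts per gene and cell for each library. Cells with over 25% mitochondrial UMIs were left out, 408 with PBS and 274 with creatine. Gates, sums, CPM and thinning were computed in Python 3.11.15 with numpy 2.4.6, pandas 2.3.3 and scipy 1.17.1, and figures with matplotlib 3.10.9. A level is the UMIs of a gene per 1000000 UMIs of the gated cells summed, and genes needed 50 UMIs over both groups compared. Doublets were scored with Scrublet in scanpy 1.11.5 and kept, since its automatic threshold marked 3 and 88 cells. TMM scaling came from edgeR 4.0.16 in R 4.3.3, and gene positions from GENCODE M21. With 1 library per condition no test was made. Members and lists were chosen with earlier results of these data known. Genes were named from the lists, from the 10 largest ratios each way with 100 UMIs and intervals apart, from the 10 highest and lowest in Tregs against Foxp3-negative CD4 T cells, and from the 5 largest differences of ratios each way. *Xist* and the Y-linked genes, *Ifit3b* and the counts of single cells were added after values were seen. Some results that these rules named are not reported here. The computation of ratios and intervals was checked on simulated counts, which says nothing of replicates.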

Additional observations from a re-analysis of the deposited data

Results flagged for a closer look

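The ratio of creatine to control had opposite signs, or differed beyond its counting interval, between Tregs and Foxp3-negative CD4 T cells for the following genes, and none of these differences was tested, since each condition is 1 library. On the log2 scale, Tregs minus comparison cells, the difference was 1.87 for *Tfrc*, 1.54 for *Gzmb* and 1.49 for *Fgl2*. It was -2.25 for *Spp1*, -3.13 for *Tbc1d4* and -7.39 for *Gzmc*, of whose 646 UMIs in the creatine comparison cells 621 lay in 1 cell. It was -1.43 for *Gm26917*, a noncoding gene model on chromosome 17, with 99 of 221 UMIs of the creatine comparison cells in 1 cell.

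*Foxp3* was also found in cells of the CD8 gate, which need not all be CD8 T cells. At 2000 UMIs per cell, 2.52% of CD8 gate cells in the control library (1.957 to 3.19) and 2.31% in the creatine library (1.73 to 3.03) held it, against 0.230% and 0.119% of NK gate cells. Over all UMIs, 15.6% and 25.5% of the CD8 gate cells with *Foxp3* were among the cells with the highest doublet scores, against 6.03% and 6.15% of Tregs. Their *Cd4* stood at 77.1 CPM with PBS and 84.2 with creatine, against 4.59 and 4.45 in CD8 gate cells without *Foxp3*, and their *Ikzf2* at 890 and 1047 against 86.8 and 112. Of the 154 and 102 cells, 70 and 43 held a single *Cd8* UMI. The part of doublets in these cells was not tested.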

How the results depend on the processing

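No paired analysis was possible because each condition has 1 library. The share of Tregs was lower in the creatine than in the control library under every alternative run. Of all cells it was 3.31% (control) and 2.44% (creatine) with at least 2 *Foxp3* UMIs, 2.53% and 2.26% with *Cd4* required, 2.61% and 2.17% without cells holding markers of other types, 3.56% and 2.66% at 2000 UMIs per cell, and 2.49% and 1.67% at 1000. Of CD4 cells it was 55.4% and 41.8% with at least 2 *Foxp3* UMIs, and 48.7% and 39.9% with *Cd4* required. The numbers of genes higher and lower in creatine Tregs were 827 and 718 with a minimum of 20 UMIs, 70 and 100 at 2-fold, and 291 and 221 without dividing cells. With equal weight per cell they were 686 and 575. At 2-fold, 206 genes were higher and 170 lower in Tregs than in Foxp3-negative CD4 T cells, and without dividing cells 273 were lower. *Hspa1a* turned to 0.68 with at least 2 *Foxp3* UMIs and to 0.26 without the highest cell, *Cxcl2* to 3.12 without cells holding markers of other types, and *Gzma* to -1.95 without dividing cells and -0.84 without the highest cell. Leaving out the highest cell was chosen after seeing the data. Where no construction of the alternative shows it, the cause was not tested. The median of interferon-stimulated genes ranged from 0.56 to 0.76, that of class I genes from 0.23 to 0.43, that of the Treg signature from -0.04 to 0.25, that of suppressive mediators from -0.01 to 0.27, that of resting T cell genes from -0.04 to 0.50 and that of dividing cell genes from -0.31 to 0.08, so the last 4 changed sign. *Lag3* ranged from 0.83 to 1.23 and *Klf2* from 1.33 to 1.93. Depth limits low genes such as *Ccr8*, *Areg* and *Usp18*.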
